A study of Mus musculus with 10 samples.

Results

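Fatty acid oxidation was examined in mouse intestinal organoids, which are small epithelia grown in culture from intestinal tissue. The 5 KO arrays came from organoids labelled as lacking IκBα, the inhibitor that holds NF-kB factors in the cytoplasm, and the 5 WT arrays from organoids labelled wild type. The sources used here state no strain, treatment or means of deletion, and both groups carry the mark P6, which the labels do not explain. The members were 33 genes named by symbol: the enzymes of mitochondrial and peroxisomal fatty acid oxidation, with genes of uptake, activation and control. Of these 31 were measured, among 19505 genes on the array, each by 1 probe set. Acsl1 and Etfb were not analysed here.

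Fatty acids are taken up, joined to coenzyme A and, if long, carried into mitochondria on carnitine. There a cycle of dehydrogenation, hydration, a second dehydrogenation and thiolysis removes 2-carbon units, and electrons pass through the electron transfer flavoprotein to the respiratory chain. Peroxisomes run a like cycle with other enzymes, mainly on very long, branched and dicarboxylic chains, and pass shortened products on to mitochondria. Absorptive enterocytes meet dietary fat in bulk and carry both systems, and PPARα is a well known activator of the genes of both.

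Most of these genes were lower in KO organoids, those of the regulators Ppara and Creb3l3, of the fatty acid receptor Cd36 and of the peroxisomal enzyme Ehhadh by far the most. Among the 31 measured, 22 fell and 9 did not pass; none rose (limma, adjusted p under 0.05 over 19572 probe sets). Over all probe sets tested, 11.7% were lower and 15% higher in KO. The median change of the members was -0.81 on the log2 scale, against -0.01 over all probe sets. In 17 members every KO array lay below every WT array, which held for 9.07% of all probe sets. All levels are RMA log2 signals, which do not rank one gene against another, and every change is KO minus WT.

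**Figure D1:**
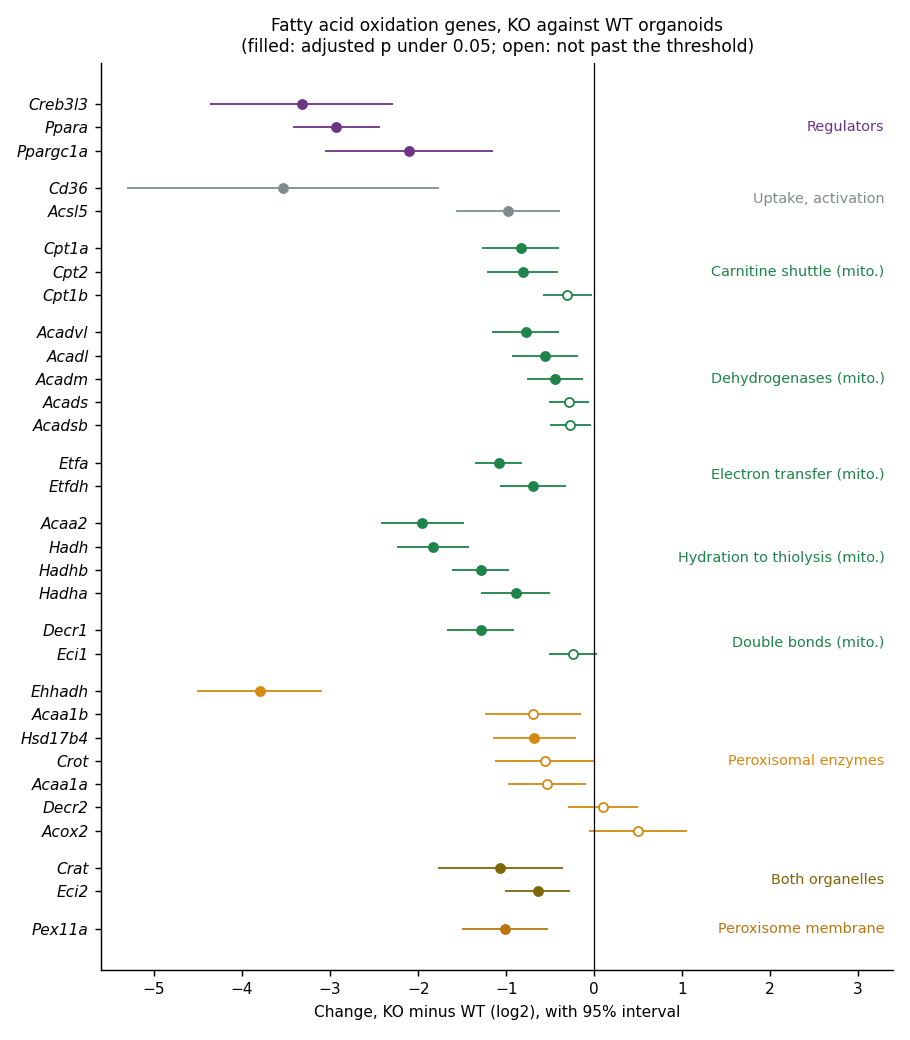
Change of each measured member, KO minus WT, on the log2 scale, with its 95% interval from limma; rows are genes grouped by role, and filled points passed the adjusted threshold of 0.05. The regulators, Cd36 and Ehhadh lie farthest to the left, the mitochondrial enzymes all lie below 0, and of the peroxisomal enzymes only Ehhadh and Hsd17b4 are filled.

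A few facts of the whole series bear on these values. Nfkbia, which encodes IκBα, stood at 5.06 ± 0.31 in KO and 9.19 ± 0.38 in WT (SD, n = 5 each), low in all 5 arrays labelled KO. The Y-linked Eif2s3y averaged 4.04 in KO and 9.23 in WT, Uty 3.38 and 7.84, and Kdm5d 3.77 and 6.19. For each of these every KO array lay below every WT array, so Y-linked signal and the KO label cannot be told apart here. Epithelial markers averaged 11.59 to 11.82 per array in KO and 11.22 to 11.58 in WT. Endothelial markers averaged 4.53 to 4.91 in KO and 4.68 to 4.86 in WT, where the medians of the negative controls ran from 4.30 to 5.10 over the 10 arrays; mesenchymal markers averaged 5.15 to 5.42 in KO and 5.33 to 5.55 in WT, and 1 of 9 fell (Lum). Of 20 markers of absorptive enterocytes 19 fell, Krt20 (-1.07, picked with its value known) did not pass, and their mean level per array was 5.96 to 6.29 in KO and 9.66 to 11.68 in WT. Fewer enterocytes and less RNA per enterocyte cannot be told apart in such samples. Of 5 immune markers 2 rose, Itgam and Csf1r, and 3 did not pass. Those 3, named after their values were seen, were Ptprc (-0.21), Adgre1 (-0.19) and Cd3e (0.15). The 5 averaged 5.69 to 6.29 in KO and 5.13 to 5.41 in WT. The 8 spike-in control probe sets were lower in KO too, by a median change of -0.52 (range -0.85 to -0.10), and 63 ERCC control probe sets changed by a median of -0.12. Of the 22 members that fell, 14 changed by more than the largest of these spike-in differences. The part of enterocyte, sex-linked or immune signal or of labelling in the results below was not tested.

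All 3 regulators fell, and every KO array lay below every WT array. Ppara encodes PPARα, the nuclear receptor that fatty acids activate and that switches on oxidation genes. Its level was 5.05, 5.57, 5.15, 5.45 and 5.25 in KO replicates 1 to 5, against 7.95, 8.34, 7.81, 9.10 and 7.93 in WT replicates 1 to 5. The groups lay far apart, and the KO values were close to the negative control medians. Ppara changed by -2.93 (standard error 0.23), which is 7.61-fold lower (limma, adjusted p = 1.69e-06); with the KO level so near background, this size may be a lower bound. Creb3l3 encodes CREB-H, a membrane-tethered transcription factor of liver and intestine that acts on lipid genes. It stood at 6.82, 6.44, 6.34, 6.52 and 6.54 in KO, against 8.08, 10.57, 9.11, 11.15 and 10.38 in WT. The KO arrays were tight and the WT arrays spread widely, with WT replicate 1 lowest. Creb3l3 changed by -3.33 with a standard error of 0.48 (limma, adjusted p = 0.000244).

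Ppargc1a encodes PGC-1α, a coactivator that promotes the making of mitochondria and their oxidative genes. It stood at 5.35, 7.04, 5.95, 5.99 and 5.94 in KO, against 9.44, 7.74, 7.42, 8.94 and 7.28 in WT. KO replicate 2 was the highest of its group and came close to the lowest WT array. Ppargc1a changed by -2.11 with a standard error of 0.44 (limma, adjusted p = 0.00341). Unlike most members, Ppargc1a was highest in WT replicate 1.

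**Figure D2:**
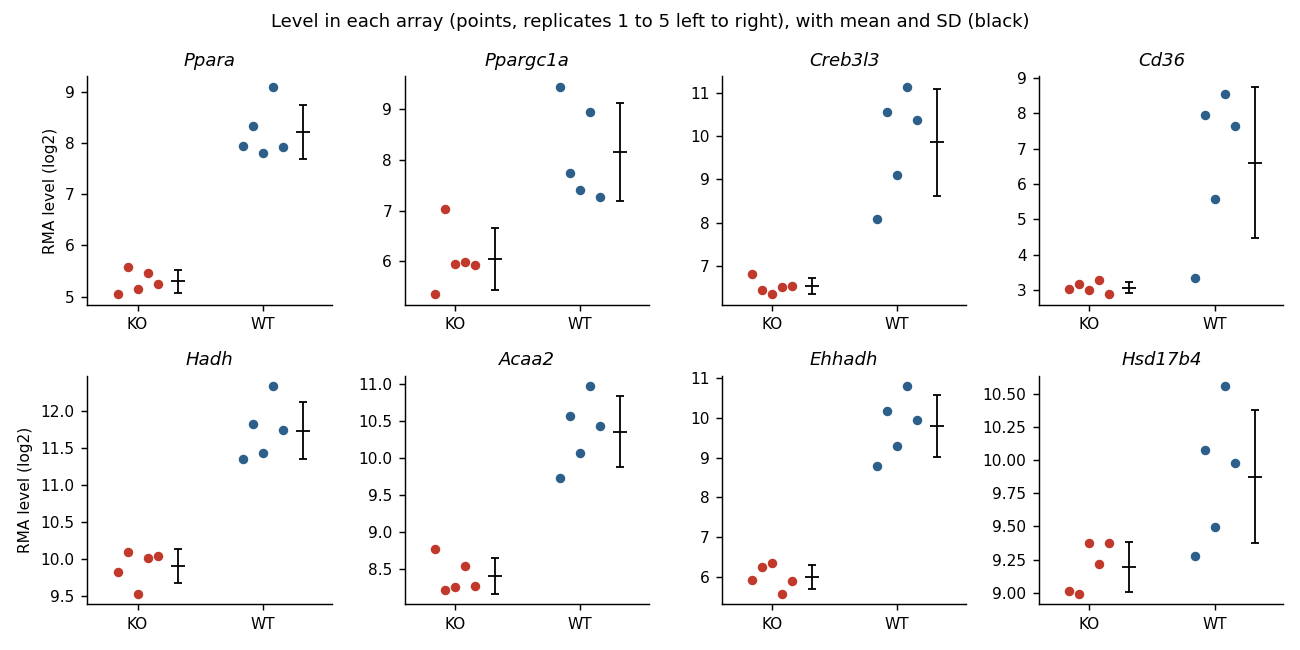
RMA log2 level in each array for the 3 regulators, Cd36 and 4 enzymes, with KO points left of WT points and the mean and SD in black (n = 5 per group); vertical scales differ. KO and WT do not overlap for any gene shown except Hsd17b4, and WT replicate 1 lies beside the KO arrays for Cd36.

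The 2 measured genes of uptake and activation fell. Cd36, a membrane receptor for long-chain fatty acids, stood at 3.01, 3.16, 3.01, 3.28 and 2.88 in KO, against 3.33, 7.94, 5.56, 8.54 and 7.63 in WT. WT replicate 1 was thus nearly as low as the KO arrays, below the negative control medians, while the other WT arrays were above them. The change of -3.53 had a standard error of 0.81 (limma, adjusted p = 0.00645), and its size is a lower bound because the KO level could not be told from background. Acsl5, a long-chain acyl-CoA synthetase abundant in small intestine, averaged 10.42 ± 0.52 in KO and 11.40 ± 0.44 in WT (SD, n = 5 each) and was 1.97-fold lower (limma, adjusted p = 0.0175). Its groups overlapped, with KO replicate 3 at 11.11.

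Mitochondrial enzymes fell in most steps of the cycle. Of 16 measured, 12 fell and 4 did not pass, and none rose, with a median change of -0.80 and a range of -1.95 to -0.24. In 10 of the 16 every KO array was below every WT array. Of the 12 that fell, 6 changed by more than the largest spike-in difference (-0.85). In the steps after the first dehydrogenation all 4 members fell, by 1.85- to 3.87-fold. Other mitochondrial genes of these steps, named after their values were seen, went different ways. Echs1 (-0.29) and Hsd17b10 (0.35) did not pass (limma, adjusted p = 0.11 and 0.0869), while the thiolase gene Acat1 (-0.65) fell.

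Acaa2, the thiolase that ends the cycle, stood at 8.77, 8.21, 8.25, 8.53 and 8.26 in KO, against 9.72, 10.58, 10.08, 10.98 and 10.43 in WT. Hadh, the dehydrogenase for short and medium 3-hydroxyacyl-CoA, stood at 9.83, 10.10, 9.54, 10.02 and 10.04 in KO, against 11.36, 11.82, 11.43, 12.33 and 11.74 in WT. Both genes separated the groups by a wide gap. Acaa2 changed by -1.95 with a standard error of 0.21 (limma, adjusted p = 3.13e-05). Hadh changed by -1.83 with a standard error of 0.19 (limma, adjusted p = 1.59e-05).

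Hadha and Hadhb encode the α and β subunits of the trifunctional protein, which carries out the last 3 steps on long chains. Hadha stood at 10.07, 10.22, 10.40, 10.42 and 10.12 in KO, against 10.59, 11.22, 11.10, 11.71 and 11.07 in WT. Hadhb stood at 8.96, 9.24, 9.16, 9.36 and 8.95 in KO, against 10.01, 10.51, 10.39, 10.79 and 10.42 in WT. KO and WT arrays did not overlap for either subunit, and WT replicate 4 was the highest for both. Hadha was 1.85-fold lower (limma, adjusted p = 0.00286) and Hadhb 2.44-fold lower (limma, adjusted p = 4.05e-05). The genes lie head to head, with starts 273 bases apart by the RefSeq promoter windows (GRCm38.p6), which run from 250 bases before to 50 after each start. The Hadhb window, chr5:30155003-30155302 on the + strand, is shown because it holds much of the Hadha window, though not the start of Hadha. Its capitals mark the 228 bases that it shares with the Hadha window, chr5:30154931-30155230 on the - strand. This window was chosen after the values were seen.

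Hadhb: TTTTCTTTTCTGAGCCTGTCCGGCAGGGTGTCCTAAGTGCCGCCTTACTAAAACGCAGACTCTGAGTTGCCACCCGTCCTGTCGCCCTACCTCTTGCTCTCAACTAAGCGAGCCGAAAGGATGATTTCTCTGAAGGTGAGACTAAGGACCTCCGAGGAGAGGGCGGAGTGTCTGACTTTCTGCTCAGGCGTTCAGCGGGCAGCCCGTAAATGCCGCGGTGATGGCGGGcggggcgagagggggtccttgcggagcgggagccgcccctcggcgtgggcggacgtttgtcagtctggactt

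The acyl-CoA dehydrogenases, which open the cycle on chains of different length, had smaller changes, and 3 of 5 fell. Acadvl, for very long chains, averaged 8.91 ± 0.11 in KO and 9.69 ± 0.40 in WT (SD, n = 5 each), a change of -0.78 (limma, adjusted p = 0.00559). Acadl, for long chains, changed by -0.56 (limma, adjusted p = 0.0306) and Acadm, for medium chains, by -0.45 (limma, adjusted p = 0.0418). The calls of the last 2 were marginal. For Acadl the call was lost when KO replicate 1, 2, 3 or 4, or WT replicate 2 or 5, was left out. For Acadm it was lost when any KO array, or WT replicate 2 or 5, was left out (limma, adjusted p up to 0.0853 for Acadm and 0.0767 for Acadl). Acadm also lost it under cyclic loess and with adjustment over all probe sets (adjusted p = 0.0539 and 0.0521). Acads, for short chains, changed by -0.29 with a 95% interval of -0.51 to -0.06 and did not pass (limma, adjusted p = 0.0597), although its groups did not overlap. Acadsb, for short branched chains of isoleucine, changed by -0.27 with an interval of -0.51 to -0.04 (limma, adjusted p = 0.0813). Acadsb passed without WT replicate 4 (limma, adjusted p = 0.0499) and under cyclic loess (adjusted p = 0.0449).

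The promoter of Acadm is shown because it was the only member promoter with a match to any of 4 motifs searched on both strands. These were HNF4 (CAAAGNCCA), ERR (TCAAGGTCA), NF-kB (GGANTTTCC) and DR1, the PPAR element, as AGGNCA given once more after 1 free base. Promoter windows were found for 26 of the 31 members; Acaa2, Decr1, Cpt1b, Crat and Hsd17b4 had none. HNF4 matched 1.98% of 32851 windows of all genes, ERR 0.423%, NF-kB 1.25% and DR1 0.381%. In the Acadm window, chr3:153944594-153944893 on the - strand of GRCm38.p6, the capitals mark the HNF4 match at positions -54 to -46 from the start. A match is a string of letters, not a bound site. Only these exact strings within the short windows were searched, so a gene without a match may still have such a site. The GC content of the windows had a median of 61.3% over 13 mitochondrial enzymes and 59.0% over 6 peroxisomal enzymes, against 52.7% over 27025 genes.

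Acadm: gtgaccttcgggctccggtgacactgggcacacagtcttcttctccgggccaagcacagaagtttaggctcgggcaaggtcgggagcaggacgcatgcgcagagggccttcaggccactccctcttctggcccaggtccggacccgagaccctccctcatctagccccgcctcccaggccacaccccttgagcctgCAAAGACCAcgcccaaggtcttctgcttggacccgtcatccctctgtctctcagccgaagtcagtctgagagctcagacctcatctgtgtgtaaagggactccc

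Electrons from these dehydrogenases pass to the electron transfer flavoprotein and its oxidoreductase. Etfa, the α subunit, stood at 9.32, 9.49, 9.47, 9.28 and 9.08 in KO, against 10.23, 10.49, 10.37, 10.72 and 10.28 in WT. The 2 groups were about equally tight and did not overlap. Etfa changed by -1.09 (standard error 0.12) and was 2.12-fold lower (limma, adjusted p = 3.81e-05). Etfdh, the oxidoreductase, changed by -0.70 (limma, adjusted p = 0.0097), with WT replicate 1 (9.38) inside the KO range of 9.11 to 9.45.

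In the carnitine shuttle 2 of 3 enzymes fell. Cpt1a, the rate-limiting outer membrane transferase, averaged 8.96 ± 0.44 in KO and 9.79 ± 0.22 in WT (SD, n = 5 each), and Cpt2, its inner membrane partner, averaged 8.60 ± 0.21 in KO and 9.41 ± 0.39 in WT (SD, n = 5 each). The changes were of like size, -0.84 and -0.81 (limma, adjusted p = 0.0085 and 0.00582). KO replicate 1 of Cpt1a (9.55) lay above WT replicate 3 (9.49), while the groups of Cpt2 did not overlap. Cpt1b, the muscle isoform, changed by -0.31 with a 95% interval of -0.59 to -0.03 and did not pass (limma, adjusted p = 0.105). Of the auxiliary enzymes for unsaturated chains, Decr1, a dienoyl-CoA reductase, stood at 6.18, 6.21, 5.83, 5.95 and 6.13 in KO, against 6.98, 7.31, 7.25, 7.99 and 7.19 in WT. Its groups did not overlap, and it was 2.44-fold lower (limma, adjusted p = 0.000152). Eci1, an enoyl-CoA isomerase, changed by -0.24 with an interval of -0.51 to 0.03 (limma, adjusted p = 0.195).

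Among the peroxisomal enzymes Ehhadh stood apart. Of 7 measured, 2 fell and 5 did not pass, and none rose, with a median change of -0.56 and a range of -3.80 to 0.50. Without Ehhadh the other 6 ranged from -0.69 to 0.50. Ehhadh, the bifunctional enzyme that hydrates and dehydrogenates straight chains and a classic PPARα target, changed more than any other member. It stood at 5.93, 6.25, 6.34, 5.58 and 5.90 in KO, against 8.79, 10.18, 9.29, 10.80 and 9.96 in WT, with a wide gap between the groups. Ehhadh changed by -3.80 (standard error 0.32) and was 13.9-fold lower (limma, adjusted p = 3.66e-06).

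Hsd17b4, the other bifunctional enzyme, which acts on branched chains and bile acid precursors as well, stood at 9.01, 8.99, 9.38, 9.21 and 9.37 in KO, against 9.28, 10.08, 9.49, 10.56 and 9.98 in WT. WT replicate 1 lay inside the KO range. Hsd17b4 changed by -0.68 (limma, adjusted p = 0.0355) and lost its call when any of 6 arrays was left out, KO replicates 1, 2 and 4 and WT replicates 2, 4 and 5 (limma, adjusted p up to 0.0849).

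The thiolases Acaa1a and Acaa1b are near-identical copies whose signals may not be fully separate. Acaa1a stood at 8.91, 8.69, 8.61, 8.80 and 8.84 in KO, against 8.68, 9.46, 8.96, 9.92 and 9.51 in WT. Acaa1b stood at 8.52, 8.56, 8.37, 8.31 and 8.41 in KO, against 8.52, 9.31, 8.54, 10.02 and 9.24 in WT. WT replicate 1 was the lowest of its group for both. They changed by -0.53 and -0.69 (limma, adjusted p = 0.0748 and 0.0603). Crot, which makes carnitine esters of medium chains for export to mitochondria, changed by -0.56 with a 95% interval of -1.13 to 0.01 (limma, adjusted p = 0.146). In all 3, WT replicate 1 lay within or beside the KO values, and all 3 passed once it was left out (limma, adjusted p = 0.0129, 0.0240 and 0.0386). Acaa1b also passed without WT replicate 3. Without WT replicate 1, 5 of 7 peroxisomal enzymes fell, while the mitochondrial count stayed at 12 of 16. Leaving out any of KO replicates 1, 2 and 4 and WT replicates 2, 4 and 5 left 1 peroxisomal enzyme that fell, and leaving out WT replicate 3 gave 3.

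The 2 members with a higher mean in KO were both peroxisomal, and neither passed. Without WT replicate 1 the change of Decr2 turned to -0.03 and that of Acox2 was 0.29. Acox2, an oxidase for branched chains and bile acid precursors, stood at 7.81, 8.75, 8.20, 7.98 and 8.31 in KO, against 6.86, 7.75, 7.74, 8.37 and 7.80 in WT. WT replicate 1 was the lowest of all and KO replicate 2 the highest, and the groups overlapped. Acox2 changed by 0.50 with a 95% interval of -0.05 to 1.06 (limma, adjusted p = 0.181). Decr2, the peroxisomal dienoyl-CoA reductase, stood at 9.01, 9.11, 9.00, 9.28 and 9.25 in KO, against 8.48, 9.11, 8.84, 9.64 and 9.07 in WT. Its KO arrays lay within the range of the WT arrays, and it changed by 0.10 with an interval of -0.30 to 0.50 (limma, adjusted p = 0.74).

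Eci2 and Crat work in both organelles, and both fell. Eci2, an enoyl-CoA isomerase, changed by -0.64 (limma, adjusted p = 0.0139) with no overlap of the groups. Crat, which moves acetyl groups between coenzyme A and carnitine, changed by -1.07 (limma, adjusted p = 0.0303) and lost its call when any of 5 arrays was left out, KO replicates 1, 2 and 5 and WT replicates 2 and 5 (limma, adjusted p up to 0.0762). Counted as peroxisomal, they brought that class to 4 of 9. Pex11a, a membrane protein that helps peroxisomes to multiply, averaged 6.85 ± 0.21 in KO and 7.87 ± 0.52 in WT (SD, n = 5 each) and was 2.02-fold lower (limma, adjusted p = 0.00517).

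Enzymes of like steps were then compared across the organelles, as the difference between both genes within each array, in 6 pairs. For 2 of the pairs that passed, the change was more negative for the mitochondrial enzyme. Decr1 minus Decr2 was -3.07 ± 0.20 in KO and -1.68 ± 0.16 in WT, and Acaa2 minus Acaa1a was -0.37 ± 0.17 in KO and 1.05 ± 0.08 in WT (SD, n = 5 each). These differences of -1.39 and -1.42 had no overlap between groups (two-sided exact permutation test, p = 0.00794, which is the lowest that 5 against 5 arrays allow; adjusted over 6 pairs, 0.0159). For the other two that passed it was the reverse. Hadha minus Ehhadh was 4.25 ± 0.34 in KO and 1.34 ± 0.44 in WT (SD, n = 5 each), a difference of 2.91 (exact two-sided permutation test, p = 0.00794, adjusted 0.0159).

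Eci1 minus Eci2 was -0.63 ± 0.27 in KO and -1.03 ± 0.11 in WT (SD, n = 5 each), a difference of 0.40 with overlap (exact two-sided permutation test, p = 0.0159, adjusted 0.0238). Hadha against Hsd17b4 (-0.21) and Cpt2 against Crot (-0.25), both more negative for the mitochondrial enzyme, did not pass (exact two-sided permutation test, adjusted p = 0.181 and 0.278). Unequal change is a statement on log2 signal, since probe sets differ in response. Neither organelle's enzyme had the more negative change in all 6 pairs.

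**Figure D3:**
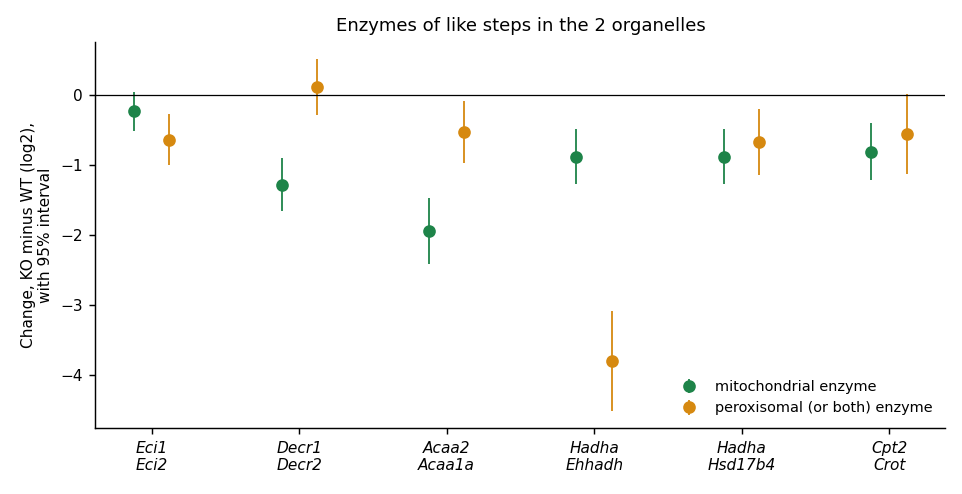
Change of each enzyme of the 6 pairs, KO minus WT, on the log2 scale with its 95% interval; the mitochondrial enzyme stands left of its peroxisomal counterpart, and Eci2 works in both organelles. The largest gap is between Hadha and Ehhadh, where the peroxisomal enzyme is lower; for Decr1 with Decr2 and Acaa2 with Acaa1a the mitochondrial one is.

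With all 7 peroxisomal enzymes counted, the class means of the organelles lay close. With each gene centred on its mean over the 10 arrays, the mitochondrial enzymes averaged -0.42 ± 0.06 in KO and 0.42 ± 0.27 in WT, and the peroxisomal enzymes -0.40 ± 0.06 in KO and 0.40 ± 0.56 in WT (SD over 5 arrays each). The mitochondrial minus peroxisomal level differed by -0.04 between the groups, less than its spread of 0.12 in KO and 0.30 in WT. Without Ehhadh, left out after the values were seen, the peroxisomal mean was -0.16 ± 0.06 in KO and 0.16 ± 0.52 in WT, a change of -0.31, against -0.85 for the mitochondrial enzymes. The mitochondrial minus peroxisomal level was then -0.27 ± 0.10 in KO and 0.27 ± 0.27 in WT (SD, n = 5 each), and every KO array lay below every WT array. Leaving out the gene with the most negative change raises the peroxisomal mean by construction, so this gap does not compare the organelles. The median change of the peroxisomal enzymes hardly moved, from -0.56 with Ehhadh to -0.55 without.

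The WT arrays carried most of the spread. The SD was larger in WT than in KO for 28 of 31 members, against 52.7% of all probe sets. WT replicate 4 was the highest WT array for 29 members and WT replicate 1 the lowest for 22, against 28.4% and 23.2% of all probe sets. In WT replicates 1, 2, 3, 4 and 5 the peroxisomal level was -0.31, 0.57, 0.07, 1.17 and 0.52, and the mitochondrial level 0.14, 0.44, 0.29, 0.87 and 0.38. Both classes thus put the 5 WT arrays in the same order.

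Absorptive enterocyte markers, a list of 20 digestive and lipid transport genes, put them in that order too, at 1.21, 2.79, 1.74, 3.22 and 2.67 in WT replicates 1 to 5. These markers moved with the members between the groups as well. The sucrase-isomaltase gene Sis changed by -7.22 and the fatty acid binding protein gene Fabp2 by -6.85. For these, and for Fabp1, Slc27a2 and Esrrg, the mean KO level was below the highest negative control median, so the sizes are lower bounds.

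**Figure D4:**
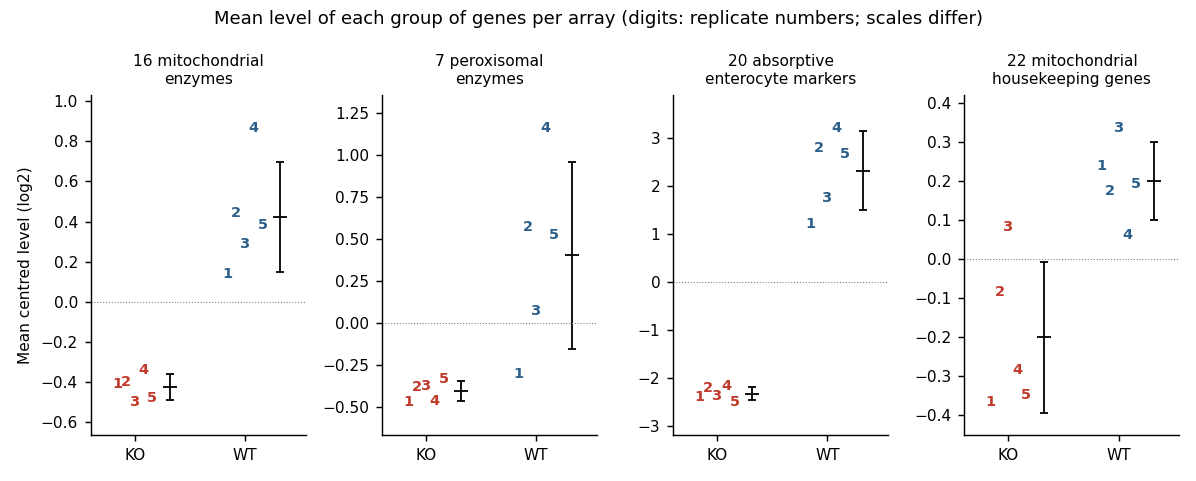
Mean level of 4 groups of genes in each array, each gene centred on its mean over the 10 arrays (log2; digits are replicate numbers, black bars the mean and SD, n = 5; scales differ). Mitochondrial enzymes, peroxisomal enzymes and enterocyte markers order the WT arrays alike, with replicate 1 lowest and replicate 4 highest; mitochondrial housekeeping genes do not.

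General genes of the organelles had smaller median changes. Of 22 mitochondrial housekeeping genes (import, DNA maintenance, fusion, chaperones) 9 fell and 13 did not pass, and none rose; the median was -0.38, nearer 0 than the -0.80 of the oxidation enzymes of that organelle. Their mean centred level was -0.20 ± 0.19 in KO and 0.20 ± 0.10 in WT (SD, n = 5 each), and WT replicate 4 was here the lowest WT array at 0.06. Tfam, which packages mitochondrial DNA, changed by -1.04 and the import receptor gene Tomm70a by -0.92. Of 12 peroxisome biogenesis genes 4 fell, 1 rose and 7 did not pass, with a median of -0.09. Their level in WT replicates 1 to 5 was -0.19, 0.09, 0.03, 0.33 and 0.19, again lowest in replicate 1 and highest in replicate 4. Pex16 (-1.07) and the import receptor gene Pex5 (-0.75) fell, as did Pex7 (-0.42) and Pex10 (-0.55), both named after their values were seen, and Pex26 rose by 0.82.

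Further genes of both organelles were measured with lists from general knowledge. The mitochondrial list also holds enzymes of amino acid breakdown, named here after their values were seen. Of these Ivd, Gcdh, Pccb and Hibch fell, while Acad8, Pcca and Hibadh did not pass. Of 23 further genes listed as mitochondrial 10 fell and 1 rose, with a median of -0.35. Acad11, an acyl-CoA dehydrogenase, changed by -2.19 and the thioesterase gene Acot2 by -1.31, while the thioesterase gene Acot9 rose by 1.44. Of 24 further peroxisomal genes 11 fell and 2 rose, with a median of -0.44. Slc27a2, a very long chain acyl-CoA synthetase, changed by -4.94, Acot4 by -2.25 and Phyh, which starts the α-oxidation of phytanic acid, by -1.43. The 2 that rose, picked with their values known, were the lipid transfer protein gene Scp2 (1.12) and the carrier gene Slc25a17 (0.86). Among these further genes the shares that fell, 43.5% and 45.8%, were close in the 2 organelles as listed. These shares depend on where the lists, drawn from general knowledge, place genes such as Acad11. The mitochondrial share also counts the enzymes of amino acid breakdown, so it is not a share of fatty acid oxidation genes alone. Among the members the counts were 12 of 16 and 2 of 7, of which 6 and 1 changed by more than the largest spike-in difference (-0.85). The difference between the organelles in these counts was not tested.

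Partners and targets of PPARα went the same way in part. Of 13 other PPARs, partners and coregulators 6 fell and none rose. The nuclear receptor genes Hnf4g (-4.55) and Esrrg (-2.48) and the coactivator gene Ncoa1 (-1.53) fell; Hnf4a, named after its value was seen, changed by -1.08 (limma, adjusted p = 0.000118). Of 18 further genes known as PPAR targets 7 fell, 1 rose and 10 did not pass. Fabp1 (-6.57) and Apoa4 (-6.13), which are enterocyte markers as well, fell, and Vnn1, which encodes pantetheinase, rose by 5.37 and stood at 10.76 ± 0.21 in KO, against 5.39 ± 1.17 in WT (SD, n = 5 each). Pdk4 (-0.17) and Angptl4 (0.17), named after their values were seen, did not pass (limma, adjusted p = 0.342 and 0.492).

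**Figure D5:**
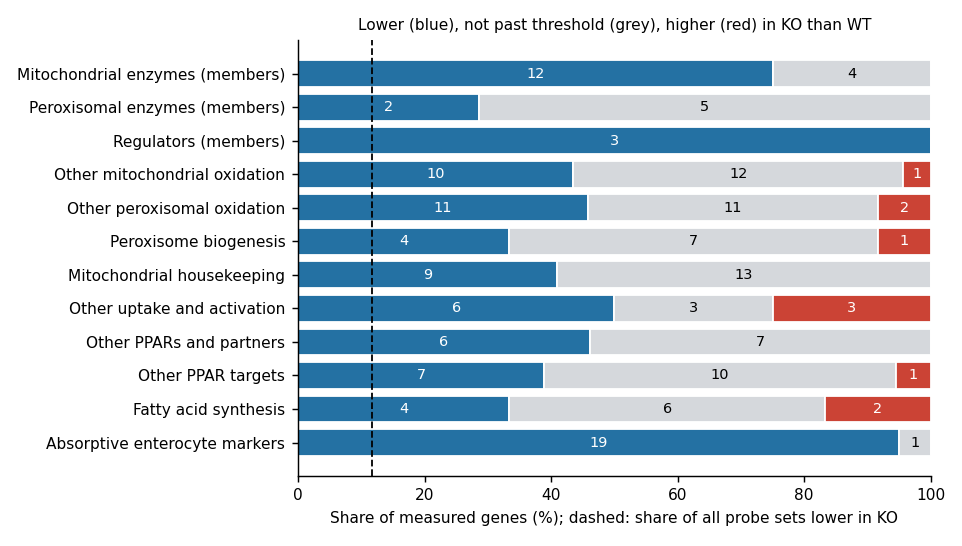
Share of the measured genes of each list that were lower (blue), not past the threshold (grey) or higher (red) in KO than in WT, with the number of genes in each bar; the dashed line is the 11.7% of all probe sets that were lower. Regulators, mitochondrial enzymes and enterocyte markers have the largest lower shares of the lists shown.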

How the data were processed

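One array per sample measured total RNA from 5 KO and 5 WT organoid samples, labelled from 100 ng with biotin per the labels' protocols. Values deposited by the authors are on the log2 scale and were summarised by RMA, according to the submitters' processing notes, where limma is named too. Versions, the genome build and whether all arrays were normalized together were not given in the sources used here. Of 28846 probe sets, 19572 had 1 gene symbol. KO and WT were compared with limma 3.58.1 in R 4.3.3 on all probe sets, with Benjamini-Hochberg adjustment over the 19572 and a threshold of 0.05. The probe set with the highest mean stood for its gene. Isozyme pairs used an exact permutation test over arrays (scipy 1.17.1). The members, their compartments and all lists were chosen with earlier results of these data known, so no list was tested as a set. Named genes were all members, the label checks and at most 3 of the largest changes that passed per list; any other is marked in the text as chosen later. The planned printing of protein ends was not done. Alternatives changed normalization, filter, variance model, adjustment, probe set averaging, the replicate block and the compartment of Eci2 and Crat, and left out each array. The fit and the exact test were tested on simulated data. Since the labels name no separate animals or cultures, p-values reflect only how these samples spread, which may be technical, and the number of arrays limits the precision.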

Additional observations from a re-analysis of the deposited data

Results flagged for a closer look

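In 5 of the 62 groups of 5 values examined (31 members in KO and in WT), 1 array stood far from the other 4 by Dixon's test (its gap to the nearest over the whole range), which chance gives in about 5% of groups. In 4 of these the array was WT replicate 4. It stood at 7.14 for Cpt1b, against 6.62 to 6.66 in the other WT arrays. For Acadm it stood at 9.80, against 9.02 to 9.18. For Acadvl it stood at 10.38, against 9.31 to 9.60, and for Eci2 at 9.69, against 9.01 to 9.09. The fifth was Crot in KO replicate 2, at 8.07 against 8.59 to 8.71 in the other KO arrays. Without WT replicate 4, Acadm, Acadvl and Eci2 still fell (limma, adjusted p = 0.0385, 0.00158 and 0.0218), and Cpt1b still did not pass (limma, adjusted p = 0.191).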

How the results depend on the processing

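The counts of members that fell were 22 in all, 12 mitochondrial and 2 peroxisomal. They were the same under cyclic loess, 75th percentile centring, the filter on dim probe sets, the trended robust variance model, the replicate block and averaged probe sets, and 21, 11 and 2 with adjustment over all probe sets; none rose under any of them. Of 527 values of single members under the alternatives, 495 kept their side of the threshold, 26 lost a call, 6 gained one and 0 reversed a called direction; 23 of 31 members kept theirs throughout. Without 1 array at a time, 18 to 25 members, 10 to 13 mitochondrial and 1 to 5 peroxisomal enzymes fell, and the median change was -0.86 to -0.63 for mitochondrial and -0.75 to -0.38 for peroxisomal enzymes. With Eci2 and Crat as peroxisomal, 4 fell. Without Ehhadh, an alternative chosen after seeing the data, the peroxisomal median was -0.55. Same-numbered KO and WT arrays correlated by -0.07 to 0.36 in their deviations from group means. KO replicates 3 and 4 correlated best with the WT array of their own number (0.36 and 0.18, best other 0.13 and 0.03). KO replicates 1, 2 and 5 correlated better with another number. Pairing thus stayed unsettled, and the numbers were not taken to pair samples in the main fit. With the replicate block the pair differences keep their values (0.40 for Eci1 and Eci2, -1.39 for Decr1 and Decr2, -1.42 for Acaa2 and Acaa1a, 2.91 for Hadha and Ehhadh), but 5 pairs allow no p below 0.0625, so the last 3, each with all 5 pairs one way, could not pass; for Eci1 and Eci2, 4 of 5 pairs went one way (exact sign-flip permutation test, adjusted p = 0.188). Signals near the negative control medians, as for Cd36 and Ppara in KO, limit the size of a change.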

Other observations

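Other genes that handle fatty acids did not move as 1 group. Of 12 further genes of uptake and activation 6 fell and 3 rose. Acsm3, a medium-chain acyl-CoA synthetase, rose by 2.85; Acsl4, which prefers arachidonic acid, and the transporter gene Slc27a1 rose by 2.20 and 1.25 and were picked with their values known. Of 12 fatty acid synthesis genes 4 fell, 2 rose and 6 did not pass. Mlxipl, which encodes the sugar-sensing factor ChREBP, changed by -3.35, and Scd1 (-0.95), Fads2 (-0.55) and Acaca (-0.48), picked with their values known, fell too, while the elongase gene Elovl5 and the malic enzyme gene Me1 rose by 1.82 each. Of 4 measured ketone body genes 2 fell, Bdh1 (-3.25), which makes and uses 3-hydroxybutyrate, and the thiolase gene Acat1 (-0.65).

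Secretory cell markers were lower in KO as well. Of 8 Paneth cell markers 7 fell, of which Defa17 and Defa3 have the same values, and the metalloproteinase gene Mmp7, picked with its value known, rose by 3.05. Of 7 goblet cell markers 5 fell and none rose, and all 6 measured enteroendocrine markers fell. Of 6 adipocyte and hepatocyte markers, for cells that also oxidise fat, 1 fell, the albumin gene Alb (-1.17, a lower bound in size, since its KO level was within the negative control medians).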
